A study of Mus musculus with 10 samples.

Results

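Transcripts of the angiotensin and corticoid receptor system were measured in left ventricles of mice in which a high-fat diet and pressure overload were combined to model the diastolic form of heart failure. The set comprised 8 genes chosen by symbol: the angiotensin precursor Agt, the peptidases Ace and Enpep, the angiotensin receptor Agtr1a, the mineralocorticoid receptor Nr3c2, the glucocorticoid receptor Nr3c1, the enzyme Hsd11b1 and the receptor cochaperone Fkbp5. These are 8 of the 29564 genes in the deposited tables, and all 8 passed the filter on low counts that left 13302 genes for testing. None of the 8 passed the test between the groups on estimated counts. The deposited lengths and TPM values gave another picture for 4 of them, since the effective transcript length assigned to Nr3c2, Fkbp5, Ace and Enpep moved between mice.

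Bulk RNA of 10 wild-type male C57BL6 mice was compared, 5 in each group as labelled. Control mice (TT-583 to TT-587) had no aortic constriction and ate standard low-fat chow, whereas the HFD+mTAC group (TT-588 to TT-592) ate a high-fat diet (HFD) and had been operated on for moderate transverse aortic constriction (mTAC), by which the aorta is narrowed and the left ventricle has to pump against a higher pressure. All 10 mice are labelled as given vehicle, stated as 10 mL/kg once a day for 6 to 9 weeks, and ages are not given in the labels. Diet and operation were always applied together in these libraries, so the part of each cannot be told apart.

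Angiotensinogen, the product of Agt, is cut by renin to angiotensin I, which angiotensin-converting enzyme (Ace) turns into angiotensin II. Angiotensin II acts on the type 1 receptor (Agtr1a in the mouse heart) to constrict vessels and to drive growth and fibrosis of the heart, and it also raises the release of aldosterone by the adrenal gland. Enpep (aminopeptidase A) shortens angiotensin II to angiotensin III. Aldosterone binds the mineralocorticoid receptor (Nr3c2). In cardiac muscle this receptor also binds glucocorticoids, since the heart has little of the enzyme Hsd11b2 that would inactivate them, while Hsd11b1 regenerates active glucocorticoid from its inert form. The glucocorticoid receptor (Nr3c1) waits in a chaperone complex, and Fkbp5, one of its own targets, lowers the receptor's affinity for hormone when bound there.

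Libraries held 34.2 to 53.7 M estimated counts in the control group and 35.8 to 46.7 M in the HFD+mTAC group. The difference in means did not pass a two-sided exact permutation test (p = 0.444). Genes tested took 12.7 to 21.1 M of these counts, and mitochondrial genes took between 43.8 and 52.7% of each library. Control mice TT-583 and TT-584 stood apart from the other 8. Their transcripts had the shortest average effective length, the length that the authors' quantification assigned to a gene, averaged over its transcripts. That quantification was run with corrections for sequence, GC and position bias, so the length can differ from that of the transcripts themselves. The median over genes of the deviation of log2 length from the gene's mean over the 10 mice was -0.08 and -0.11. Their mitochondrial shares were the lowest. TT-584, and less so TT-583, had high levels of heat shock transcripts. In counts scaled to a common library size, both had the lowest Agtr1a and Nr3c2 of the 10 mice. Beside many, but not all, results that leaving them out moved or turned, the value without them is given. The cardiac identity of the tissue was clear, since the summed level of 8 cardiomyocyte markers was 16899 to 24629 TPM (an abundance corrected for transcript length) in each mouse.

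The promoters bear on these genes in 2 ways, through the alternative starts of Ace and through elements that corticoid receptors can bind. RefSeq windows on GRCm38.p6 were matched for 6 of the 8 members, 7 windows in all, and the 250 bases before each start were searched. A window for Agtr1a and one for Nr3c1 were not used here. The windows below are shown 5′ to 3′ on the strand of the gene, with the TATA box (TATAAA, sense strand) and the GC box (GGGCGG, or CCGCCC on the other strand, overlaps allowed) in capitals. They lie at chr8:124569707-124569956 (minus strand) for Agt, at chr11:105967698-105967947 and chr11:105974939-105975188 (both plus strand) for Ace, at chr8:76902080-76902329 (plus strand) for Nr3c2 and at chr17:28486150-28486399 (minus strand) for Fkbp5.
Agt: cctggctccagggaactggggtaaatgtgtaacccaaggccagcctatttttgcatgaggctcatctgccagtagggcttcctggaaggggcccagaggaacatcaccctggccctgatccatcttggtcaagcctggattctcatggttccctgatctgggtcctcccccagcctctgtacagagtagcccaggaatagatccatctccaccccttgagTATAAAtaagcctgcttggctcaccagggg
Ace, upstream start: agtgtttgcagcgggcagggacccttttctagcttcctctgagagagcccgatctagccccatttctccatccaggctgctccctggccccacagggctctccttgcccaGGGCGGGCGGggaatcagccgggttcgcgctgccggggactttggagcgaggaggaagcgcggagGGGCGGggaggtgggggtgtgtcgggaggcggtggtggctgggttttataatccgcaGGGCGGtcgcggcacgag
Ace, internal start: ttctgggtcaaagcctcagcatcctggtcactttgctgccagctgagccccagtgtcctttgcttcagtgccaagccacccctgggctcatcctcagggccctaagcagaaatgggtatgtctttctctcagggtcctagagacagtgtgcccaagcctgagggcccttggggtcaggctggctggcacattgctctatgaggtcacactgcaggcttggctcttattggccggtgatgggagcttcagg
Nr3c2: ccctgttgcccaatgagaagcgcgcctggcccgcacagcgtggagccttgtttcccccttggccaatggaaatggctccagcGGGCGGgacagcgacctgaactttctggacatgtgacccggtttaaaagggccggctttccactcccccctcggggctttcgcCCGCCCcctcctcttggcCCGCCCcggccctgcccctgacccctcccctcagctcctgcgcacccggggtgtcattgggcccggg
Fkbp5: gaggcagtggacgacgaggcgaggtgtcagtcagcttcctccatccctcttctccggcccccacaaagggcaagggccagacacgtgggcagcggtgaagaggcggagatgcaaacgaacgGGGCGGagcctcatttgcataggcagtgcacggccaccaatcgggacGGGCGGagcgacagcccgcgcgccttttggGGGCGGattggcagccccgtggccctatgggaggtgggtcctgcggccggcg

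Among the 6 members searched, Agt alone had this TATA box, at position -30 from the start. Of 32851 RefSeq windows, 7.59% hold one. GC boxes were found 4 times before the upstream Ace start, 3 times for Nr3c2 and 3 times for Fkbp5, but not before the internal Ace start or in the windows of Agt, Enpep and Hsd11b1, whereas 32.7% of all windows hold at least 1. The upstream Ace window serves the long somatic enzyme, and the internal window serves the short transcript known from the testis. The core hexamer of corticoid response elements (TGTTCT, or AGAACA on the other strand) was in none of the 7 windows and in 16.1% of all windows, and the palindrome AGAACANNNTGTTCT was in none of the 7 and in 3 of all windows. Absence from these short windows says nothing of elements elsewhere.

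**Figure D1:**
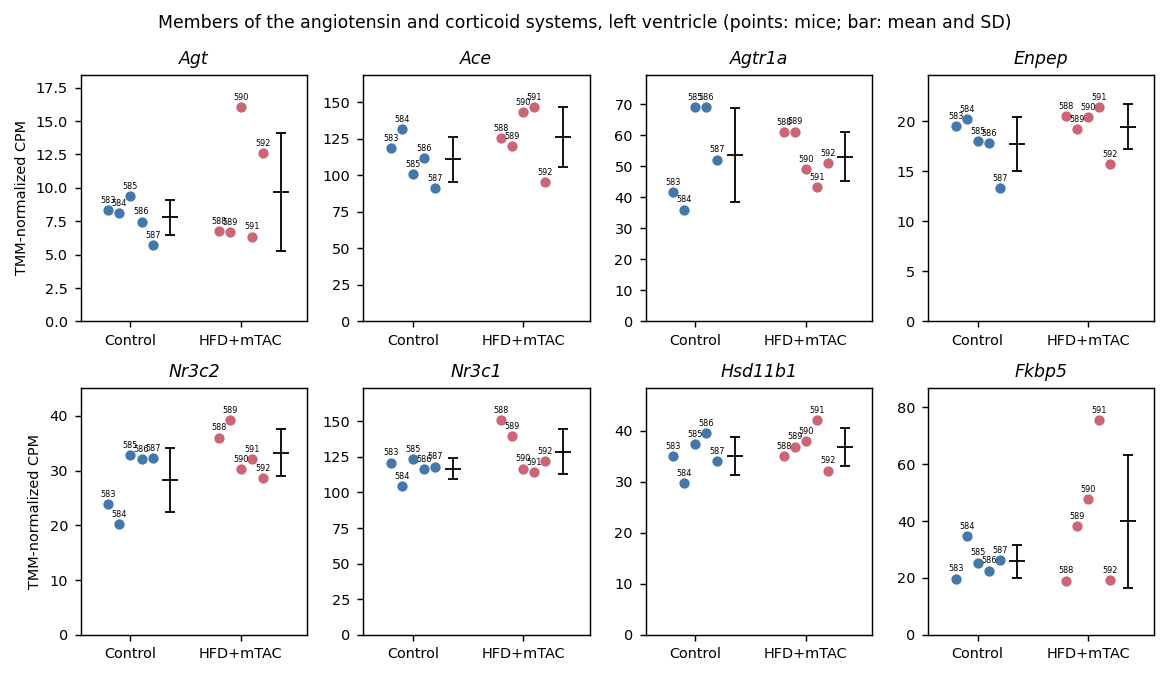
Level of each of the 8 members in each mouse in CPM (read counts scaled to a common library size by TMM), with mouse numbers beside the points and the mean and SD of each group of 5 as bars. The groups overlap in all 8 panels, and Fkbp5 in HFD+mTAC mice spreads from 19.0 to 75.5 CPM.

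The ligand precursor and its peptidases came first. Agt (chromosome 8, bases 124556534 to 124569706, minus strand, GRCm38) was measured at 8.31, 8.09, 9.35, 7.47 and 5.74 CPM (read counts scaled to a common library size) in the control mice, in the order of their numbers. In the HFD+mTAC mice, again in order, it was 6.79, 6.71, 16.1, 6.35 and 12.6 CPM. TT-590 and TT-592 lay above every control mouse, while the other 3 HFD+mTAC mice lay within the control range. Means were 7.79 ± 1.33 CPM (SD, n = 5) in control and 9.70 ± 4.40 CPM (SD, n = 5) under HFD+mTAC, and the log2 fold change was 0.31 (SE 0.27, 95% confidence interval -0.27 to 0.88), which did not pass the test (edgeR quasi-likelihood, adjusted p = 0.824). Without TT-590 it was 0.05.

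Ace (chromosome 11, bases 105967945 to 105989964, plus strand) was at 119, 132, 101, 112 and 91.5 CPM in control mice. The HFD+mTAC mice had 126, 120.2, 144, 147 and 95.2 CPM. TT-590 and TT-591 exceeded every control mouse, but TT-592 was among the lowest of the 10. The means of 111 ± 15.6 and 126 ± 20.8 CPM (SD, n = 5 each) gave a log2 fold change of 0.19 (SE 0.13, interval -0.09 to 0.47, adjusted p = 0.772 in edgeR). Without TT-583 and TT-584 it was 0.32, with an adjusted p of 0.898 in edgeR.

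Enpep (chromosome 3, bases 129269175 to 129332720, minus strand) ran from 13.3 to 20.2 CPM in control mice and from 15.7 to 21.4 CPM in HFD+mTAC mice. TT-587 and TT-592, which had the least Ace of their groups, also had the least Enpep. The group means were 17.8 ± 2.69 and 19.4 ± 2.23 CPM (SD, n = 5 each), with a log2 fold change of 0.13 (SE 0.13, interval -0.15 to 0.41, adjusted p = 0.863 in edgeR). It was 0.04 without TT-587 and 0.25 without TT-583 and TT-584.

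Agtr1a (chromosome 13, bases 30336441 to 30382867, plus strand), the receptor through which angiotensin II acts in the heart, had 41.7, 36.1, 69.2, 69.1 and 52.2 CPM in control mice. It had 61.0, 61.2, 49.2, 43.4 and 51.1 CPM in HFD+mTAC mice. All 5 HFD+mTAC values fell between the control extremes, which were set by TT-584 below and TT-585 above. The means were nearly equal at 53.7 ± 15.3 and 53.2 ± 7.79 CPM (SD, n = 5 each), and the log2 fold change was -0.01 (SE 0.18, interval -0.40 to 0.38, adjusted p = 0.994 in edgeR). Its sign depended on single mice, as it was 0.10 without TT-585 and -0.26 without TT-583 and TT-584, and neither value passed the test. The interval leaves room for a change in either direction of up to about 0.4 on the log2 scale.

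The corticoid receptors followed. Nr3c2 (chromosome 8, bases 76899442 to 77245012, plus strand) was at 23.9, 20.3, 32.9, 32.1 and 32.2 CPM in control mice and at 36.1, 39.2, 30.3, 32.2 and 28.6 CPM in HFD+mTAC mice. TT-588 and TT-589 lay above every control mouse, and the control mean was pulled down by TT-583 and TT-584. Means were 28.3 ± 5.82 and 33.3 ± 4.34 CPM (SD, n = 5 each), with a log2 fold change of 0.24 (SE 0.15, interval -0.08 to 0.56, adjusted p = 0.735 in edgeR). Without TT-583 and TT-584 the change was 0.04 (adjusted p = 0.987 in edgeR).

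Nr3c1 (chromosome 18, bases 39410545 to 39519421, minus strand) was at 121, 104, 124, 116 and 118 CPM in control mice. HFD+mTAC mice had 151, 139, 117, 114 and 122 CPM, so that TT-588 and TT-589 again stood above the control range and the other 3 within it. The group means of 117 ± 7.46 and 129 ± 15.9 CPM (SD, n = 5 each) differed by 0.14 on the log2 scale (SE 0.09, interval -0.06 to 0.34, adjusted p = 0.763 in edgeR).

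Hsd11b1 (chromosome 1, bases 193221634 to 193264075, minus strand), which supplies active glucocorticoid inside the cell, ranged from 29.6 to 39.5 CPM in control mice and from 32.2 to 42.1 CPM in HFD+mTAC mice, with means of 35.1 ± 3.71 and 36.8 ± 3.66 CPM (SD, n = 5 each). The log2 fold change of 0.07 (SE 0.10, interval -0.15 to 0.29) did not pass the test in edgeR (adjusted p = 0.918), and it was -0.0059 without TT-583 and TT-584.

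Fkbp5 (chromosome 17, bases 28399094 to 28517527, minus strand) had the largest fold change of the 8 and the widest spread. Control mice had 19.8, 34.8, 25.4, 22.6 and 26.3 CPM, and HFD+mTAC mice had 19.0, 38.1, 47.8, 75.5 and 19.1 CPM. TT-589, TT-590 and TT-591 lay above every control mouse, whereas TT-588 and TT-592 lay below every control mouse. Means were 25.8 ± 5.66 and 39.9 ± 23.5 CPM (SD, n = 5 each). The log2 fold change was 0.63 (SE 0.33, interval -0.10 to 1.36, adjusted p = 0.670 in edgeR), and it fell to 0.26 without TT-591.

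By edgeR, 0 of the 8 members passed an adjusted p of 0.05, beside 0.0601% of all genes tested (8 of 13302; 0.0451% higher and 0.015% lower), and 0 of the 8 had an unadjusted p under 0.05, beside 8.26%. DESeq2 called 0 of the 8, beside 0.921% of its genes, and 0 had an unadjusted p under 0.05, beside 8.86%. No member had groups that did not overlap, against 1.96% of all genes. In 23 alternative fits no member was called, and the lowest adjusted p reached by any of them was 0.377, for Fkbp5. A miss at this sample size is no sign of equal levels. In simulated data edgeR called 16 of 100 genes given a log2 change of 0.5 and 91 of 100 given a change of 1. The simulation gave all genes the same dispersion (0.042) and changed only genes above a floor of counts. The SE of the members ran from 0.09 for Nr3c1 to 0.33 for Fkbp5, so these shares are not the power for each member. Since whole ventricle was used, fewer cells of a type and less RNA per cell cannot be told apart in any of these values.

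Compared per length, Hsd11b1 was the most abundant member at a mean of 10.1 TPM over the 10 mice, followed by Ace at 7.20, Agtr1a at 2.96, Nr3c1 at 2.54, Nr3c2 at 0.960, Agt at 0.789, Enpep at 0.708 and Fkbp5 at 0.4995 TPM. Only the step from Nr3c1 to Nr3c2 separated the mice without overlap, and glucocorticoid receptor transcript exceeded mineralocorticoid receptor transcript in 10 of 10 mice. Every other pair of neighbours in this order had overlapping ranges, and Nr3c2 exceeded Agt in only 4 of 10 mice. These levels depend on the effective lengths, which moved between mice for several members. For Hsd11b1 the lengths were steady but short, 457 to 629 bases, while its longest coding transcript in the annotation has 1623 bases. In CPM, which take no account of length, the order differed. Hsd11b1 (means of 35.1 in control and 36.8 in HFD+mTAC mice) lay below Ace, Nr3c1 and Agtr1a, and Fkbp5 lay above Agt and Enpep.

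**Figure D2:**
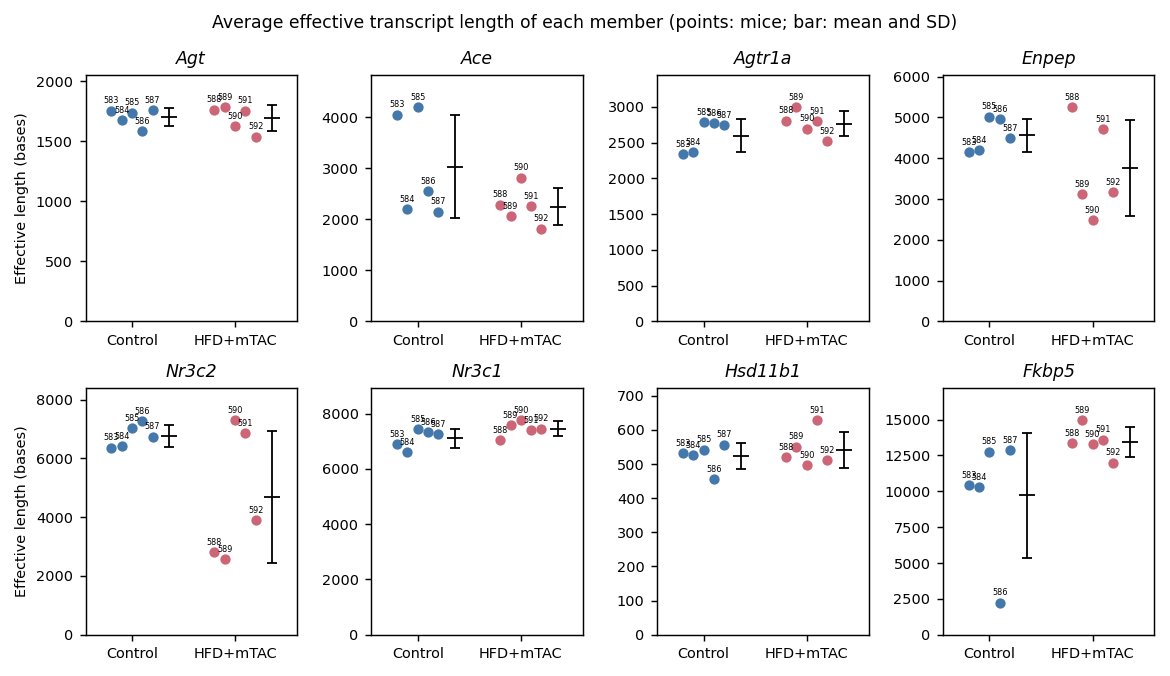
Average effective transcript length (bases) that the authors' quantification assigned to each member in each mouse, with the mean and SD of each group of 5. Agt, Agtr1a, Nr3c1 and Hsd11b1 vary by at most 1.38-fold, whereas Ace, Enpep, Nr3c2 and Fkbp5 shift by over 2-fold between mice.

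Estimated counts and TPM gave different pictures for 4 members, because the length assigned to a gene was not the same in each mouse. Nr3c2 had lengths of 6365 to 7259 bases in the 5 control mice. In HFD+mTAC mice they were 2800, 2576, 7306, 6874 and 3907 bases. TT-588, TT-589 and TT-592 thus had short values that no control mouse showed, and the same 3 mice had Nr3c2 at 1.99, 1.98 and 1.26 TPM when every other mouse lay between 0.554 and 0.688 TPM. The difference in mean log2 length between the groups did not pass a two-sided exact permutation test (p = 0.143).

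For Fkbp5 the odd library was a control mouse. TT-586 had a length of 2235 bases and 1.42 TPM, against 10289 to 14966 bases and at most 0.767 TPM in the other 9 mice. Each of these 9 lengths exceeds the longest Fkbp5 transcript of the older annotation used here, 3858 bases. Whether the bias corrections of the quantification or the older annotation account for such lengths was not tested. Other members also had lengths above their longest transcript there, up to 7306 against 5916 bases for Nr3c2, 7769 against 6436 for Nr3c1, 3000 against 2199 for Agtr1a and 5263 against 4181 for Enpep, so no length was matched to an annotated transcript. Fkbp5 lengths were longer in HFD+mTAC than in control mice (exact p = 0.0476, unadjusted), and its mean of 0.585 ± 0.486 TPM in control and 0.414 ± 0.220 TPM (SD, n = 5 each) in HFD+mTAC mice ran against the counts. This direction rested on TT-586, since the other 4 control mice had a mean of 0.376 ± 0.154 TPM (SD, n = 4), and the medians of all 5 mice were 0.330 TPM in both groups.

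Ace had lengths of 4051, 2208, 4206, 2550 and 2152 bases in control mice and of 2288, 2069, 2817, 2252 and 1820 bases in HFD+mTAC mice. Control mice TT-583 and TT-585 had the longest values, and the other 8 mice had at most 2817. The annotation lists Ace transcripts of 4906, 3649 and 2418 bases, and the last of them starts at base 105975208, just after the internal window shown above. Which transcript the reads came from was not tested, since only values per gene were analysed. Enpep lengths ran from 4152 to 5023 bases in control mice and from 2483 to 5263 bases in HFD+mTAC mice. Such shifts were not particular to these members: among 10105 genes with a mean of at least 5 CPM, 23.9% had a highest length over 2 times the lowest and 4.26% over 5 times.

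**Figure D3:**
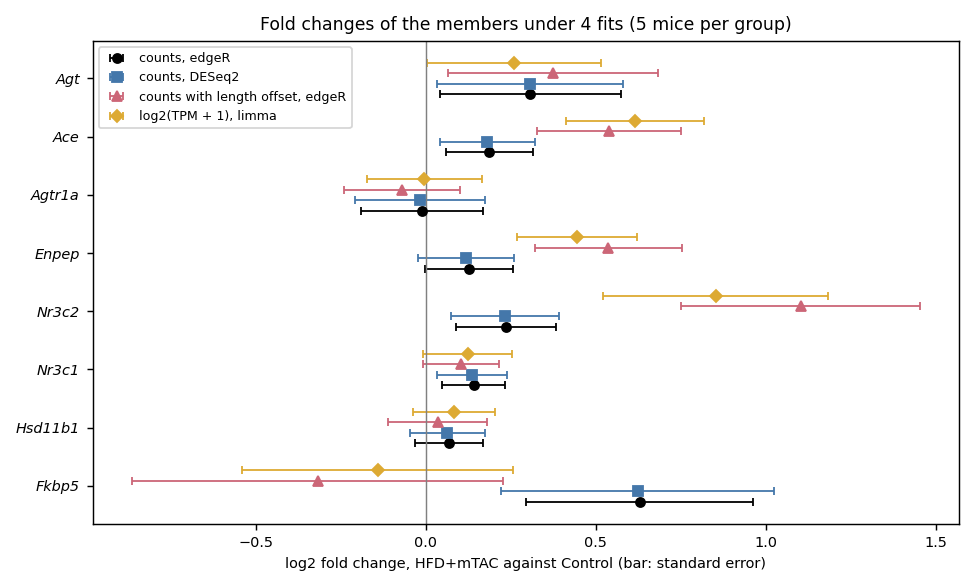
Log2 fold change of each member, HFD+mTAC against control (5 mice per group, bars are standard errors), from counts with edgeR, counts with DESeq2, counts with a length offset in edgeR, and log2(TPM + 1) with limma. Both fits on counts coincide for each gene, Nr3c2 moves from 0.24 to 1.10 with the length offset, and Fkbp5 moves from 0.63 to -0.32.

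When the lengths entered the fit as an offset, Nr3c2 had a log2 fold change of 1.10 (SE 0.35, interval 0.33 to 1.87) in place of 0.24, with an adjusted p of 0.583 in edgeR. Ace moved from 0.19 to 0.54 (adjusted p = 0.640) and Enpep from 0.13 to 0.54 (adjusted p = 0.647) in the same edgeR fit. Fkbp5 changed sign, from 0.63 to -0.32 (SE 0.55, adjusted p = 0.913 in edgeR), but was 0.41 (SE 0.40, adjusted p = 0.782) in the same edgeR fit without TT-586, an omission chosen after seeing the data. Agt, Agtr1a, Nr3c1 and Hsd11b1 moved by less than 0.07. Over all 10105 genes the median absolute shift was 0.083, and 4.87% shifted by more than 0.5, as Nr3c2 and Fkbp5 did. The offset fit called 1 gene, 0.00752% of those tested, and no member. Unadjusted, Nr3c2, Ace and Enpep had a p under 0.05 in this fit (3 of 8, beside 7.44% of all genes) and in limma on log2(TPM + 1) (3 of 8, beside 6.61%). The two-sided exact permutation test on log2(TPM + 1), with TPM as deposited, gave p = 0.135 for Nr3c2, 0.127 for Ace and 0.190 for Enpep.

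**Figure D4:**
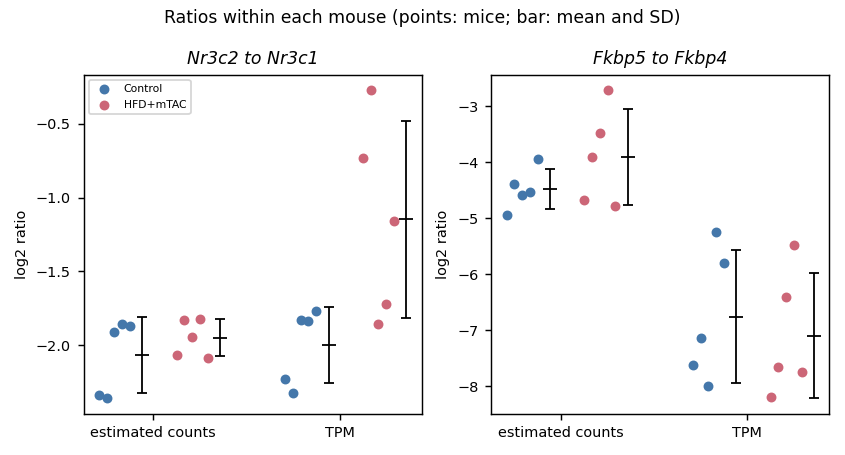
Log2 ratio of Nr3c2 to Nr3c1 and of Fkbp5 to Fkbp4 in each mouse, from estimated counts and from TPM, with the mean and SD of each group of 5. The Nr3c2 to Nr3c1 difference of 0.85 on TPM is 0.12 on counts, and the Fkbp5 to Fkbp4 difference is -0.34 on TPM and 0.57 on counts.

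Ratios within a mouse ask how opposing genes stood to each other. The difference in the ratio of mineralocorticoid to glucocorticoid receptor transcript did not hold on both scales. On TPM the log2 ratio was -1.998 ± 0.258 in control and -1.148 ± 0.666 (SD, n = 5 each) in HFD+mTAC mice, a difference of 0.85 (two-sided exact permutation test, p = 0.0317). Its adjusted p in this exact test was 0.0476 over the 3 ratios tested and 0.0635 over the 2 reported, on either side of the threshold of 0.05. It was set by TT-588, TT-589 and TT-592, the mice with short Nr3c2 lengths. On counts the difference was 0.12 (exact p = 0.365), and without TT-583 and TT-584 the difference on TPM was 0.66 (exact p = 0.179). Fkbp4, a cochaperone that counters Fkbp5 in the receptor complex, gave a ratio of Fkbp5 to Fkbp4 that differed by -0.34 on TPM (exact p = 0.643; 0.043 without TT-586 and -0.75 without TT-583 and TT-584) and by 0.57 on counts (exact p = 0.23).

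The other genes of the pathway were read from lists by role. On the ligand side, 16 of 18 further genes were tested, and 0 were called by edgeR or DESeq2, with 11 log2 fold changes above 0, 5 below and a median of 0.05. Over all genes tested, 50.3% were above 0 and the median was 0.001. Renin transcript (Ren1) was listed at 0 counts in every mouse, so that the first enzyme of the cascade was not detectable in this tissue at this depth. Mme (neprilysin), which cleaves angiotensin I to angiotensin 1-7, was at 11.2 to 18.9 CPM in control and 17.8 to 24.8 CPM in HFD+mTAC mice, with a log2 fold change of 0.57 (SE 0.16, adjusted p = 0.312 in edgeR). Its groups overlapped by the values of TT-586 and TT-591 alone, and the change was 0.41 without TT-583 and TT-584.

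Among 19 further receptors and receptor partners, 17 were tested and 0 were called by edgeR, with 11 above 0 and a median of 0.03, which was 0.05 without TT-583 and TT-584. Agtr1b and Agtr2, the other angiotensin II receptors, were at 0 counts in every mouse, and Mas1, the receptor for angiotensin 1-7, was at 0.461 to 2.99 CPM. Plcb1, a phospholipase C that carries the signal of the type 1 receptor, was called by DESeq2 as higher (adjusted p = 0.038), as were 0.476% of all genes. It was at 18.1, 19.0, 18.9, 16.8 and 22.9 CPM in control mice and at 29.7, 24.2, 23.8, 28.3 and 23.2 CPM in HFD+mTAC mice. The groups did not overlap, as for 1.08% of all genes in this direction, and the log2 fold change was 0.43 (SE 0.11), but edgeR gave an adjusted p of 0.261.

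Of 29 genes known to rise with angiotensin II in heart or vessel, 28 were tested. By edgeR 0 were called, 13 had log2 fold changes above 0 and 15 below, and the median was -0.02. Without TT-583 and TT-584, 18 of 28 were above 0 and the median was 0.13. DESeq2 called 2 of them, both lower, beside 0.445% of all genes. They were Ccl2, a chemokine that draws monocytes, with a log2 fold change of -1.20 (SE 0.28, DESeq2 adjusted p = 0.008, edgeR 0.244), and Egr1, an immediate early transcription factor, with -0.67 (SE 0.17, DESeq2 adjusted p = 0.019, edgeR 0.261). Without TT-583 and TT-584 the changes of Ccl2 and Egr1 were -0.88 and -0.53 (adjusted p = 0.745 and 0.782 in edgeR). Ccl2 was at 10.1 to 24.8 CPM in control mice and at 3.62 to 8.72 CPM in HFD+mTAC mice, without overlap, as for 0.887% of all genes in this direction. Acta1, the skeletal actin that returns in loaded heart muscle, was at 138 to 343 CPM in control and 220 to 1120 CPM in HFD+mTAC mice, with the top value in TT-590. It did not pass the test (log2 fold change 1.13, SE 0.38, edgeR adjusted p = 0.416), and the change was 1.41 without TT-583 and TT-584. Further genes of this list went both ways. Their log2 fold changes were 0.35 for Myh7, -0.54 for Nppa, -0.56 for Nppb and -1.35 for Rcan1. None of these passed the test in edgeR, with the lowest adjusted p, 0.300, for Rcan1. The change of Rcan1 was -0.51 without TT-583 and TT-584.

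Of 14 enzymes and carriers of corticoids 7 were tested and 0 called by edgeR or DESeq2, with 6 above 0 and a median of 0.32. The adrenal enzymes Cyp11b1 and Cyp11b2, which complete corticosterone and aldosterone, were at 0 counts in every mouse, and Hsd11b2 had 0 to 10 counts per mouse. H6pd, which feeds cofactor to Hsd11b1, was at 38.2 to 51.9 CPM in control and 48.9 to 62.1 CPM in HFD+mTAC mice (log2 fold change 0.29, SE 0.10, adjusted p = 0.400 in edgeR).

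All 27 chaperones and cofactors of the receptors were tested and 0 were called by edgeR or DESeq2, with 11 above 0, 16 below and a median of -0.03. Without TT-583 and TT-584, 14 were above 0. Hspa1a, an inducible heat shock chaperone, was at 56.7, 258, 11.4, 19.2 and 15.7 CPM in control mice and at 48.2, 13.4, 12.4, 9.76 and 16.9 CPM in HFD+mTAC mice. The high value of TT-584 carried its log2 fold change of -1.84 (SE 0.81, adjusted p = 0.575 in edgeR), which was 0.39 without TT-583 and TT-584. Hsp90aa1, the inducible form of the chaperone that holds both receptors, likewise stood at 714 CPM in TT-584 and between 195 and 352 CPM in the other 9 mice.

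Genes known to rise with glucocorticoids leaned upward in HFD+mTAC mice, though edgeR called 0 of 40. Of these 40 genes 31 had log2 fold changes above 0 and 9 below, 77.5% against 50.3% of all genes, with a median of 0.18. With the length offset 30 were above 0, and without TT-583 and TT-584 34 were. DESeq2 called 3 as higher and 0 as lower, and the same 3 had groups that did not overlap, beside 0.476% of all genes called higher by DESeq2 and 1.08% without overlap in this direction. They were Ddit4, an inhibitor of mTORC1, Zbtb16, a transcriptional repressor, and Angptl4, an inhibitor of lipoprotein lipase.

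Ddit4 was at 32.9, 40.2, 38.5, 25.3 and 50.6 CPM in control mice and at 66.0, 78.9, 147, 119 and 87.0 CPM in HFD+mTAC mice. Its log2 fold change was 1.41 (SE 0.22, interval 0.92 to 1.90). The adjusted p was 0.051 in edgeR, just over the threshold, and 8.33e-07 in DESeq2. In edgeR it was 0.004 when the first principal component of the libraries was added to the fit (a covariate chosen after seeing the data). With the length offset in edgeR it was 0.24, at a log2 fold change of 1.28. Without TT-583 and TT-584 the edgeR value was 0.411, at a log2 fold change of 1.39. Ddit4 was called in none of the 10 edgeR fits that left out a single mouse. Zbtb16 was at 20.4 to 30.8 CPM in control and at 35.7, 82.7, 35.0, 75.1 and 43.1 CPM in HFD+mTAC mice, with a log2 fold change of 1.00 (SE 0.24, DESeq2 adjusted p = 0.011, edgeR 0.250). Angptl4 was at 3.54 to 5.46 CPM in control and 5.71 to 19.1 CPM in HFD+mTAC mice. Its log2 fold change of 1.16 (SE 0.29, DESeq2 adjusted p = 0.017, edgeR 0.261) turned to -0.35 with the length offset, as Fkbp5 did.

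**Figure D5:**
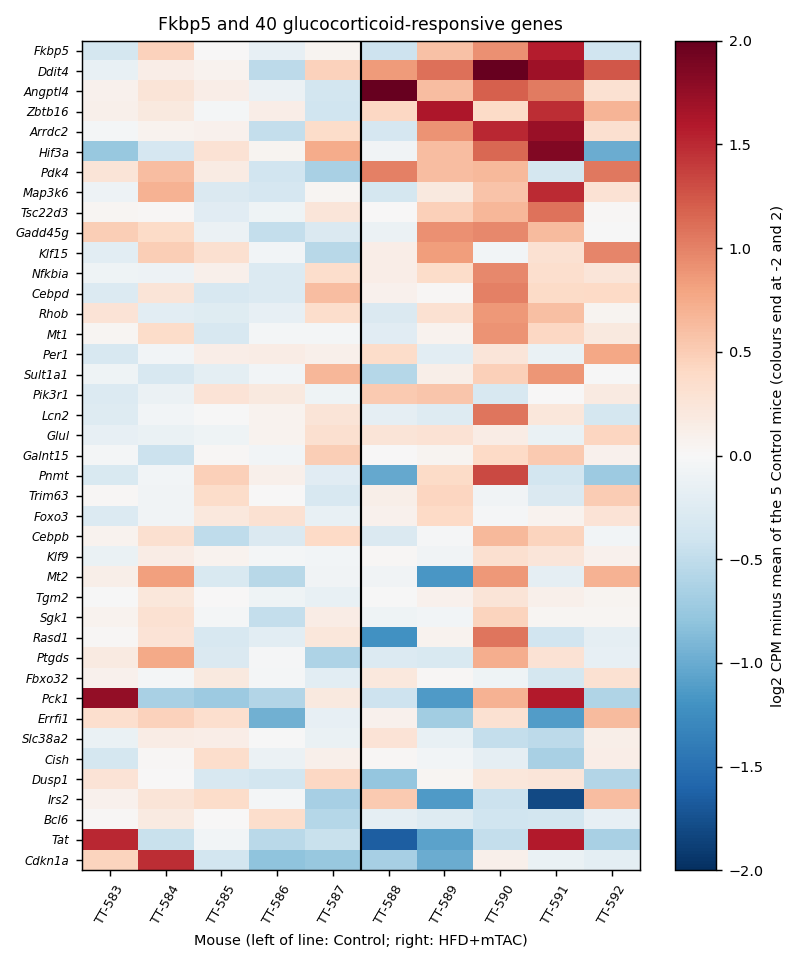
Log2 CPM of Fkbp5 (top) and 40 glucocorticoid-responsive genes in each mouse, as the difference from the mean of the 5 control mice and ordered by fold change. Red is higher and blue lower; TT-590 has 30 of the 40 genes above the control mean and TT-586 has 10.

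The mice did not share this lean equally. Of the 40 genes, 30 were above the control mean in TT-590, 27 in TT-592, 26 in TT-591, 25 in TT-589 and 20 in TT-588. The control mice had between 10 and 25 above it, with the most in TT-584. The ranges overlapped. Fkbp5 was high in TT-589, TT-590 and TT-591, and so was Tsc22d3, the glucocorticoid-induced leucine zipper, at 194, 220.0 and 293 CPM in these mice and 119 to 165 CPM in the other 7 (log2 fold change 0.50, SE 0.19, adjusted p = 0.467 in edgeR). Taking each mouse's deviation from its group mean, Fkbp5 correlated with Tsc22d3 (Pearson's r = 0.89, Spearman's rho = 0.76, 10 mice) and with Arrdc2 (r = 0.88, rho = 0.89). Of 35 list genes with a mean of at least 5 CPM, 4 had r over 0.7, 11.4% against 4.53% of all 10104 genes, and the median r was 0.37 against 0.002. The list was split, as 3 had r below -0.7 (8.57% against 3.68% of all genes), namely Fbxo32 (r = -0.84), Irs2 (r = -0.81) and Slc38a2 (r = -0.76). These points share libraries and are given as a description.

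Of 27 genes known to respond to aldosterone or the mineralocorticoid receptor, 21 were tested and 0 called by edgeR, with 12 above 0, 9 below and a median of 0.05. Without TT-583 and TT-584, 13 were above 0 and the median was 0.13. DESeq2 called 1 as higher, beside 0.476% of all genes. It was Zbtb16. This gene, Sgk1, Tsc22d3, Per1, Lcn2 and Ptgds are also on the glucocorticoid list, so the lists are not independent. All of these shared genes had log2 fold changes above 0. Adamts1, a metalloprotease, was at 266 to 391 CPM in control and 164 to 273 CPM in HFD+mTAC mice, with a log2 fold change of -0.51 (SE 0.15, adjusted p = 0.358 in edgeR). Its highest values, 391 CPM each, were in TT-583 and TT-584, and the change was -0.30 without them. Scnn1b and Scnn1g, subunits of the epithelial sodium channel that aldosterone raises in the kidney, were at 0 counts in every mouse.

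Within the set, 2 pairs of members moved most closely across mice. Deviations from the group mean of log2 CPM correlated between Ace and Enpep (r = 0.89, rho = 0.85) and between Agtr1a and Nr3c2 (r = 0.87, rho = 0.87), over the same 10 mice. Weaker and near each other in size were Nr3c1 with Fkbp5 (r = -0.64, rho = -0.62), Agtr1a with Nr3c1 (r = 0.64, rho = 0.62), Nr3c2 with Nr3c1 (r = 0.63, rho = 0.58) and Ace with Fkbp5 (r = 0.62, rho = 0.56). Among 10104 other genes, the nearest to Fkbp5 were Mxd4, Rpe and Bcl2l1 (r = 0.93 to 0.94). Nearest to Agtr1a were Lmbr1, Tldc1 and Tgfbr3 (r = 0.97 to 0.98), to Nr3c2 Rpa1, Cep112 and Hnrnpk (r = 0.93 to 0.95), and to Nr3c1 Pbrm1, Zeb2 and Clcn3 (r = 0.96 to 0.97). Ace was nearest to Nab1, Rnaset2b and Fkbp14 (r = 0.92 to 0.96), Enpep to Amotl1, Pcgf3 and Nlk (r = 0.91 to 0.95), and Agt to Fam69b, Asna1 and Tmem108 (r = 0.90 to 0.93). For Hsd11b1 the nearest were the beta-globin gene Hbb-bs, Lhx6 and the alpha-globin gene Hba-a1 (r = 0.93 to 0.94).

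Markers of cell types moved with several of these values. The summed level of the 8 cardiomyocyte markers was 21820 ± 2081 TPM in control and 18305 ± 1446 TPM (SD, n = 5 each) in HFD+mTAC mice (two-sided exact permutation test, p = 0.0238, unadjusted over 12 lists), although 0 of the 8 genes was called by edgeR. Schwann cell markers were at 1.30 ± 0.475 TPM in control and 0.736 ± 0.189 TPM (SD, n = 5 each) in HFD+mTAC mice (exact p = 0.0397, unadjusted), and atrial markers at 17.1 ± 2.65 and 13.8 ± 2.07 TPM (SD, n = 5 each; exact p = 0.0476, unadjusted). Fibroblast, endothelial, pericyte and macrophage sums overlapped between the groups, with exact p of at least 0.270. Across mice, Nr3c2 ran against the adipocyte (r = -0.91), fibroblast (r = -0.90), macrophage (r = -0.88), endothelial (r = -0.80) and pericyte (r = -0.78) markers. Agtr1a ran against the same lists (r = -0.88, -0.79, -0.81, -0.80 and -0.85, in that order). All these are over 10 mice as deviations from the group mean. With the cardiomyocyte markers r was -0.65 for Nr3c2 and -0.40 for Agtr1a. Neither gene ran against a single cell type alone. Fibroblast sums were highest in TT-583 and TT-584 (201 and 198 TPM, against 103 to 172 in the other 8), the mice lowest in Nr3c2 and Agtr1a in CPM. In TPM, the scale of the sums, they were not the lowest. Agtr1a was at 3.10 and 2.73 TPM there, against 2.14 TPM in TT-591. Nr3c2 was at 0.652 and 0.565 TPM, against 0.554 TPM in TT-590. Erythroid markers ran with Hsd11b1 (r = 0.92) and ranged from 90.2 to 877 TPM in control and 95.4 to 861 TPM in HFD+mTAC mice. Hsd11b1 also ran against the macrophage (r = -0.71) and cardiomyocyte (r = -0.71) markers. The part of these markers in the values of the members was not tested.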

How the data were processed

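Left ventricular RNA of 5 control and 5 HFD+mTAC mice was analysed, all with vehicle. The authors prepared stranded mRNA libraries, trimmed reads (fastp) and ran salmon against GENCODE M25 transcripts (GRCm38.p6); the submitters' processing notes give Salmon 1.6.0 and a human build, which goes against mouse samples. The authors deposited expected counts per gene (tximport, not normalized, 20.07% not whole), TPM values, and the average effective length of each gene in each mouse, in bases.

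Counts were rounded and tested with edgeR 4.0.16 in R 4.3.3 (TMM, quasi-likelihood test, Benjamini-Hochberg adjustment over 13302 genes, threshold 0.05, no covariate). Genes were kept when protein-coding, not mitochondrial and with at least 1 count in 9 of 10 mice. Symbols were matched to GENCODE M21 on GRCm38, an older release than the authors used (27812 directly, 892 through older symbols, 860 unmatched). CPM used the TMM library sizes. Alternatives used DESeq2 1.42.0, limma 3.58.1 on log2(TPM + 1) or log2(TPM + 0.1), other normalizations and filters, all gene types, the robust fit, length offsets and leaving out single mice. For limma, TPM were first rescaled in each mouse to a common sum over the genes tested. A covariate for the first principal component, the length offset without TT-586, adjustment over 2 ratios and the omission of TT-583 and TT-584 together were chosen after seeing the data. Single values were tested with two-sided exact permutation tests (scipy 1.17.1, all arrangements of 5 against 5). In simulated data of 13302 genes, edgeR also called 2 unchanged genes and DESeq2 10.

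Depth was 34.2 to 53.7 M counts per mouse, and counts of the members ranged from 73 to 2523. Library pairs within a group differed by a chi-square per degree of freedom of at least 13.3, so no library was a repeat of another. Labels give each mouse its own number and no batch. The members and gene lists were chosen with earlier results of these data known. Genes named are the 8 members and genes picked by rule, or a subset of these. For each list these were the 3 with the smallest edgeR p in each direction. For each member they were the 3 with the most similar profile. Ren1, Agtr1b, Agtr2, Cyp11b1, Cyp11b2, Hsd11b2, Scnn1b, Scnn1g, Fkbp4 and Arrdc2 were named after their values were seen. So were Myh7, Nppa, Nppb, Sgk1, Per1, Lcn2, Ptgds, Fbxo32, Irs2 and Slc38a2. Promoter windows came from RefSeq (GRCm38.p6). Of 3 ratios tested within a mouse, 1 is not reported here, nor are some genes that these rules select.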

Additional observations from a re-analysis of the deposited data

Results flagged for a closer look

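Among 48 groups of 5 values tested (CPM, TPM and effective length of the 8 members), 2 held a mouse far from the other 4, and chance gives about 1 in 20. Both concern Fkbp5 in control mouse TT-586. Its level there was 1.42 TPM, against 0.276 to 0.605 TPM in the other 4 control mice, and its effective length was 2235 bases, against 10289 to 12878 bases. TPM is computed with this length, so the values are not independent of each other, and on counts TT-586 stood within its group at 22.6 CPM. Why the length was short was not tested.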

How the results depend on the processing

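No member was called under any of 23 alternatives. Agt, Ace, Enpep, Nr3c2 and Nr3c1 kept their direction in each of them. Fkbp5 reversed to -0.14 and -0.17 with limma on log2(TPM + 1) and log2(TPM + 0.1), and to -0.32 with the length offset, but was 0.41 with the offset when TT-586 was left out. Agtr1a, near 0, ranged from -0.13 to 0.10 as each mouse was left out, and was positive without TT-585, TT-586, TT-590, TT-591 or TT-592, and was 0.023 with the offset without TT-586. As each mouse was left out, Agt ran from 0.05 to 0.42, Ace from 0.12 to 0.27, Enpep from 0.04 to 0.19, Nr3c2 from 0.14 to 0.30, Nr3c1 from 0.07 to 0.18, Hsd11b1 from 0.01 to 0.11 and Fkbp5 from 0.26 to 0.81. Hsd11b1 was -0.0059 without TT-583 and TT-584. The number of genes called, 8 in edgeR, was 120 with DESeq2, 1 with limma on either TPM scale, 1 with the length offset (3 when TT-586 was left out), 49 with the first principal component as a covariate, 4 without TT-583 and TT-584, and 1 to 9 as each mouse was left out. In the pathway lists, 0 by edgeR and in each omission became 6 with DESeq2 (4 higher, 2 lower) and 1 with the principal component; unadjusted p-values under 0.05 are in 1099 of all genes in edgeR and 1178 in DESeq2.

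The difference in the log2 ratio of Nr3c2 to Nr3c1 was 0.12 on counts, 0.44 with a pseudocount of 1 TPM (exact p = 0.00794, the smallest the test can give), 0.66 without TT-583 and TT-584, and 0.63 to 1.03 as each mouse was left out, with exact p of 0.0556 to 0.0714 without any single control mouse. That of Fkbp5 to Fkbp4 was 0.57 on counts, 0.043 without TT-586 and -0.74 to 0.043 over all omissions. Counts lack the effective lengths that TPM carry; beyond that the cause was not tested. No paired analysis was possible because the groups share no replicate numbers. In the simulation with 5 mice per group, most changes of 0.5 on the log2 scale were not called, and members with another spread may differ from this.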
